A study of Homo sapiens with 5 samples.

Results

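The replication-dependent histone genes were taken from the deposited expression table as every protein-coding gene whose symbol begins with HIST1H, HIST2H, HIST3H or HIST4H, which gave 71 of the 60504 genes listed. Single genes entered by symbol and biotype, but the group as a whole was selected on its TPM in the contrast below, whose values were already known, so its levels and differences are given as a description, with no test. The RNA came from DAOY, an established human cell line of the sonic hedgehog (SHH) subgroup of medulloblastoma, a tumour of the cerebellum. All cells were transfected by lipid reagent with 20 nM siRNA for 48 h. The si-NC group (2 libraries) received a non-targeting siRNA, and the si-circ_63706 group (3 libraries) received siRNA against circ_63706, a circular RNA made from exons of PCNT. The labels do not say which siRNA sequence each si-circ_63706 library received, nor whether libraries of a group came from separate cultures, so p values measure only the spread between these libraries, which may be technical. Values are TPM (transcripts per 1000000), an abundance per transcript length that sums to 1000000 over all genes of a library. The number of reads behind a value is unknown. In the annotation searched below, 34 of the 71 genes have models of coding sequence alone, while other models are longer. Ranks, ratios and shares of TPM between histone genes may therefore partly reflect annotated length, which was not tested. Below, the most abundant gene is the one with the highest mean TPM.

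Replication-dependent histone genes supply the proteins that package newly copied DNA. H2A, H2B, H3 and H4 form the core of the nucleosome, and H1 is the linker histone that binds where DNA enters and leaves it. The genes lie in clusters, many as copies that encode the same or nearly the same protein, and their transcription rises as cells enter S phase. Their mRNAs typically end after a short hairpin in the 3′ UTR instead of carrying a poly(A) tail. SLBP binds this hairpin, and U7 snRNP with its LSM10 and LSM11 proteins guides the cut that forms the end.

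The hairpin was read from annotated transcripts (GENCODE 29, GRCh38) with a fixed 16-base pattern that allowed only set letters at each position. Forms outside the pattern would be missed, so the search does not measure how much the hairpin varies. A match was found in transcripts of 31 of the 71 genes, between 22 and 67 bases after the stop codon and so within the 3′ UTR. No H1 gene was among them. Another 34 genes have annotated models that hold coding sequence alone, so the search could not reach their 3′ UTR. HIST1H1A, HIST1H1B, HIST1H1C and HIST1H1D are among these, so the lack of H1 matches does not show that H1 mRNAs lack the hairpin. The 5 forms were as follows, each as it lies in the named gene, with the loop in capitals.
HIST2H2AA3 (chr1:149842223-149842238, minus strand): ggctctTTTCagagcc
HIST1H2BC (chr6:26123472-26123487, minus strand): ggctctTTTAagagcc
HIST1H2AG (chr6:27133515-27133530, plus strand): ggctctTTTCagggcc
HIST1H4J (chr6:27824459-27824474, plus strand): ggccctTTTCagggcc
HIST2H4A (chr1:149833032-149833047, plus strand): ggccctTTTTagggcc
The first form was the most frequent, in 17 genes, of which 6 encode H2A, 8 H2B and 3 H3. The second was in 5 genes (3 for H2B and 2 for H3), and the third was in HIST1H2AG alone. The 2 remaining forms, with a different stem, were in H4 genes, 5 and 3 respectively.

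Promoter sequence is shown for the most abundant gene of each class, because the classes differ in the motifs that they hold. Promoters were matched for 66 of the 71 genes in RefSeq (GRCh38.p14), as windows of 300 bases from 250 before to 50 after the start. Both strands were searched for TATAAA (the TATA box), CCAAT (the CCAAT box) and ATTTGCAT (the octamer, the binding site of POU2F1). The octamer can share its first letters with the end of a CCAAT match. The 120 bases before each start follow, with TATAAA, and CCAAT on either strand, in capitals.
HIST1H1C (chr6:26056471-26056590, minus strand): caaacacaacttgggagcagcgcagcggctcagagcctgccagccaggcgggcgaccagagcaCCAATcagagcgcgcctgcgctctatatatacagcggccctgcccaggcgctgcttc
HIST2H2AA3 (chr1:149842751-149842870, minus strand): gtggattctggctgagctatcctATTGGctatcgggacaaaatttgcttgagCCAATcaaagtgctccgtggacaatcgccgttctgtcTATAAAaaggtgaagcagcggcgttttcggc
HIST1H2BC (chr6:26123927-26124046, minus strand): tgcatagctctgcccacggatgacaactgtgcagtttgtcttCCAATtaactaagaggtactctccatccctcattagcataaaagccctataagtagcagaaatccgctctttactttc
HIST1H3B (chr6:26032100-26032219, minus strand): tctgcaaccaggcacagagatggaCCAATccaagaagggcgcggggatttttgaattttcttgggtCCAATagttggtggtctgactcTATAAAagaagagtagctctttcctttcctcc
HIST1H4J (chr6:27823972-27824091, plus strand): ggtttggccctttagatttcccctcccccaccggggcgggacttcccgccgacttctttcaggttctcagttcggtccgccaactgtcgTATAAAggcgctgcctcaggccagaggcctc
TATAAA was present anywhere in the window, on either strand, in 68.2% of the 66 histone promoters and in 11.5% of 35116 promoters of the same length. On the strand of the gene and beginning between positions -35 and -25, it was present in 54.55% against 2.17%. CCAAT was present in 84.9% against 34.6%. It was found in all matched promoters of H1, H2A, H2B and H3, and in 3 of 13 for H4. The octamer was found in 11 of 16 H2A and 14 of 18 H2B promoters and in none of the matched H1, H3 and H4 promoters, against 1.77% of all promoters. Windows of neighbouring H2A and H2B genes that face apart overlap, so a single octamer can be counted for both, as in HIST2H2AC and HIST2H2BE. Every H2A octamer except that of HIST1H2AM lay on the reverse strand. In HIST1H2BC the octamer begins at position -123 from the start, just beyond the stretch printed.

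Most histone genes were well expressed in DAOY cells. Of the 71 genes, 23 had a mean of at least 100 TPM over the 5 libraries, 24 lay between 10 and 100, 10 lay between 1 and 10, and 14 were under 1 TPM. The 10 most abundant made up 49.7% of all histone TPM. The 57 genes with a mean of at least 1 TPM entered the comparison between groups (4 H1, 15 H2A, 14 H2B, 12 H3 and 12 H4), so counts below cover these and not every gene. Of the 14 left out, none exceeded 0.89 TPM in any library, and HIST3H3, HIST1H4F and HIST1H4G were listed at 0 in all 5. The others left out included HIST1H1T, HIST1H2AA and HIST1H2BA, which are known from the testis.

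Summed histone TPM was lower in every si-circ_63706 library than in either si-NC library. The 71 genes summed to 9358 and 9174 TPM under si-NC and to 5971, 6081 and 6201 TPM under si-circ_63706. The si-circ_63706 mean was 65.7% of the si-NC mean. Part of this distance was shared with other genes, since the log2 difference (si-circ_63706 minus si-NC, on log2(TPM + 1)) had a median of -0.16 over all 12710 tested genes. With each library centred on its median gene, the histone sum was 73.3% of si-NC, and within protein-coding TPM alone it was 73.0%. As a share of protein-coding TPM, histone genes made up 3.162% and 3.224% in si-NC libraries and from 2.302% to 2.366% in si-circ_63706 libraries.

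**Figure D1:**
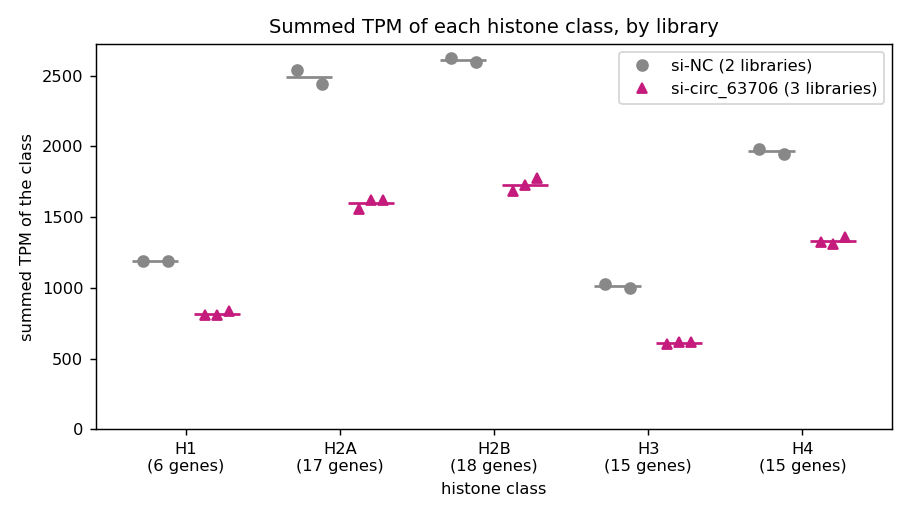
Summed TPM (vertical axis) of each histone class (horizontal axis) in every library, with si-NC as grey circles, si-circ_63706 as pink triangles and the group mean as a line. In all 5 classes the 3 si-circ_63706 libraries lie below both si-NC libraries.

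The log2 difference had a median of -0.59 over the 57 tested histone genes and ranged from -1.54 (HIST2H2AA4) to -0.19 (HIST4H4). Centred, the median was -0.43, against 0.00 over all tested genes. Of the 57, 54 had a lower level at an adjusted p under 0.05 in limma, where 35.4% of all tested genes did, and 0 had a higher level, where 4.16% did. Every si-circ_63706 library lay below both si-NC libraries for 56 of the 57, where 55.2% of all tested genes did so. The difference was below -0.5 for 47, where 6.45% of tested genes were, and 47 were lower with the libraries centred, where 13.7% were. These counts come from the contrast that put the group forward, and nothing is read from them. The 3 genes that did not pass were HIST2H3C, HIST2H3PS2 and HIST4H4.

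**Figure D2:**
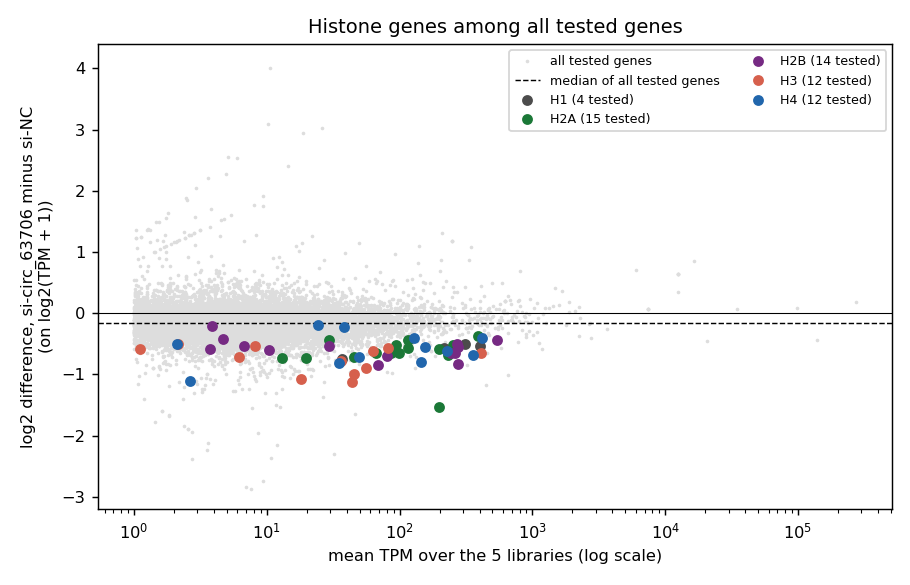
Log2 difference (vertical axis, si-circ_63706 minus si-NC on log2(TPM + 1)) against mean TPM over the 5 libraries (horizontal log axis) for all 12710 tested genes (grey) and the 57 tested histone genes (coloured by class). The histone genes all lie below 0 at every level, around -0.59, while the median of all tested genes (dashed) is -0.16.

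Linker histones were represented by 4 somatic H1 genes. HIST1H1C, the most abundant, had 501 and 492 TPM in si-NC and 334, 340 and 356 TPM in si-circ_63706, a log2 difference of -0.53 ± 0.05 (SE, n = 2 and 3). HIST1H1E had 371 and 379 TPM against 262, 262 and 269 TPM, and with -0.50 was the H1 gene nearest to 0. HIST1H1B had 269 and 269 TPM against 184, 175 and 182 TPM. In all of these the groups were separated by far more than the distance between libraries of a group. The least abundant, HIST1H1D, had 48.2 and 49.2 TPM against 28.2, 29.4 and 28.2 TPM and the lowest difference of the class, -0.75 ± 0.04 (SE). Summed H1 TPM was 68.7% of the si-NC mean, the highest of the 5 classes.

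H2A genes, whose protein pairs with H2B in the nucleosome, had a median log2 difference of -0.64. HIST2H2AA3 had 465 and 437 TPM in si-NC and 348, 357 and 345 TPM in si-circ_63706, a log2 difference of -0.36 ± 0.05 (SE), the smallest in size of the class. HIST2H2AA4 had 321 and 335 TPM against 101, 112 and 126 TPM, a difference of -1.54 ± 0.09 (SE), the largest in size of all 57 genes. These genes are near-identical: of the 50-base windows of their transcripts, 0% of HIST2H2AA3 and 2.91% of HIST2H2AA4 occur in no other gene's transcripts, so how reads were divided between them is uncertain. Their summed TPM was 786 and 772 in si-NC and 449, 469 and 471 in si-circ_63706, which is 59.4% of the si-NC mean.

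The next most abundant H2A genes behaved more alike. HIST1H2AD had 315 and 302 TPM against 215, 217 and 214 TPM, a difference of -0.52 ± 0.04 (SE). It overlaps a read-through gene, AL031777.3, on the same strand, which also covers HIST1H3D. HIST2H2AC had 310 and 285 TPM against 171, 194 and 190 TPM, a difference of -0.69 ± 0.07 (SE). Over all 17 H2A genes the sum was 64.1% of si-NC.

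H2B genes held the most TPM of any class, 2622 and 2596 under si-NC and 1682, 1728 and 1775 under si-circ_63706. HIST1H2BC, the most abundant histone gene, had 636 and 652 TPM against 463, 481 and 490 TPM, a log2 difference of -0.43 ± 0.04 (SE). HIST2H2BE had 385 and 369 TPM against 206, 212 and 214 TPM, a difference of -0.84 ± 0.04 (SE). The si-circ_63706 mean was thus 74.2% of the si-NC mean for HIST1H2BC and 55.9% for HIST2H2BE. HIST1H2BK had 350 and 329 TPM against 223, 229 and 240 TPM, a difference of -0.56 ± 0.05 (SE). Only 25.9% of its 50-base windows are unique and 61.45% are shared with H2BFS, a gene outside the group, so how its reads were divided is uncertain. HIST2H2BF had 95.1 and 91.9 TPM against 50.2, 50.7 and 53.9 TPM and the lowest difference of the class, -0.85 ± 0.05 (SE). At the other end, HIST1H2BG was low, at 4.08 and 4.45 TPM against 3.47, 3.63 and 3.56 TPM, and its -0.21 ± 0.06 (SE) became -0.05 with the libraries centred.

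H3 genes had the lowest class median, -0.68, and the lowest summed TPM relative to si-NC, 60.3%. HIST1H3B carried most of the class, with 534 and 512 TPM against 329, 340 and 334 TPM, a log2 difference of -0.64 ± 0.04 (SE). HIST1H3D had 102 and 103 TPM against 69.3, 66.8 and 70.9 TPM, a difference of -0.56 ± 0.04 (SE). Groups did not overlap in either gene. Among genes with largely unique sequence, the differences of largest size were also of this class. HIST1H3H, with 27.5 and 26.5 TPM against 12.8, 12.1 and 12.3 TPM, had -1.07 ± 0.05 (SE). HIST1H3F, with 65.4 and 65.3 TPM against 32.3, 34.6 and 30.0 TPM, was at 49.4% of the si-NC mean. Both were singled out after their values were seen.

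The copies HIST2H3C and HIST2H3A have the same transcript sequence (0% unique windows in either), and their values were erratic. HIST2H3C had 104 and 58.2 TPM against 38.4, 60.9 and 54.7 TPM, and was the one tested histone gene whose groups overlapped. HIST2H3A had 45.3 and 87.2 TPM against 38.4, 21.4 and 27.5 TPM. Where one copy was high in a si-NC library the other was low, and the sum of both was steady, at 149 and 145 TPM in si-NC and 76.9, 82.2 and 82.2 TPM in si-circ_63706, 54.7% of the si-NC mean. HIST2H3PS2, at 2.78 and 2.73 TPM against 1.89, 2.42 and 0.88 TPM, was near the minimum for testing, with a difference of -0.50 ± 0.24 (SE).

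H4 genes had a median log2 difference of -0.58 and a sum of 67.7% of si-NC. HIST1H4J had 501 and 482 TPM against 376, 364 and 373 TPM, a difference of -0.41 ± 0.04 (SE). HIST2H4A had 466 and 460 TPM against 283, 291 and 296 TPM, a difference of -0.67 ± 0.04 (SE). HIST1H4C had 294 and 279 TPM against 187, 178 and 196 TPM, a difference of -0.61 ± 0.05 (SE). In these abundant genes the libraries of each group lay close together and far from the other group. HIST1H4K, whose transcript is contained in that of HIST1H4J (0% unique windows), was at 5.80 and 2.98 TPM against 1.83, 1.83 and 0.76 TPM, and its -1.11 ± 0.29 (SE) is uncertain for that reason. HIST2H4A likewise shares 97.5% of its windows with HIST2H4B, and the sum of both was 62.6% of si-NC.

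HIST4H4, the single histone gene on chromosome 12, was nearest to si-NC of the 57. It had 24.8 and 27.4 TPM against 21.5, 23.6 and 23.4 TPM, a log2 difference of -0.19 ± 0.07 (SE), and -0.03 with the libraries centred. The si-circ_63706 libraries were still all below the si-NC libraries, but by less than the distance between libraries of the same group. HIST1H4L was close to it, at 41.2 and 43.2 TPM against 37.5, 36.0 and 34.2 TPM, and was also singled out after its values were seen.

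**Figure D3:**
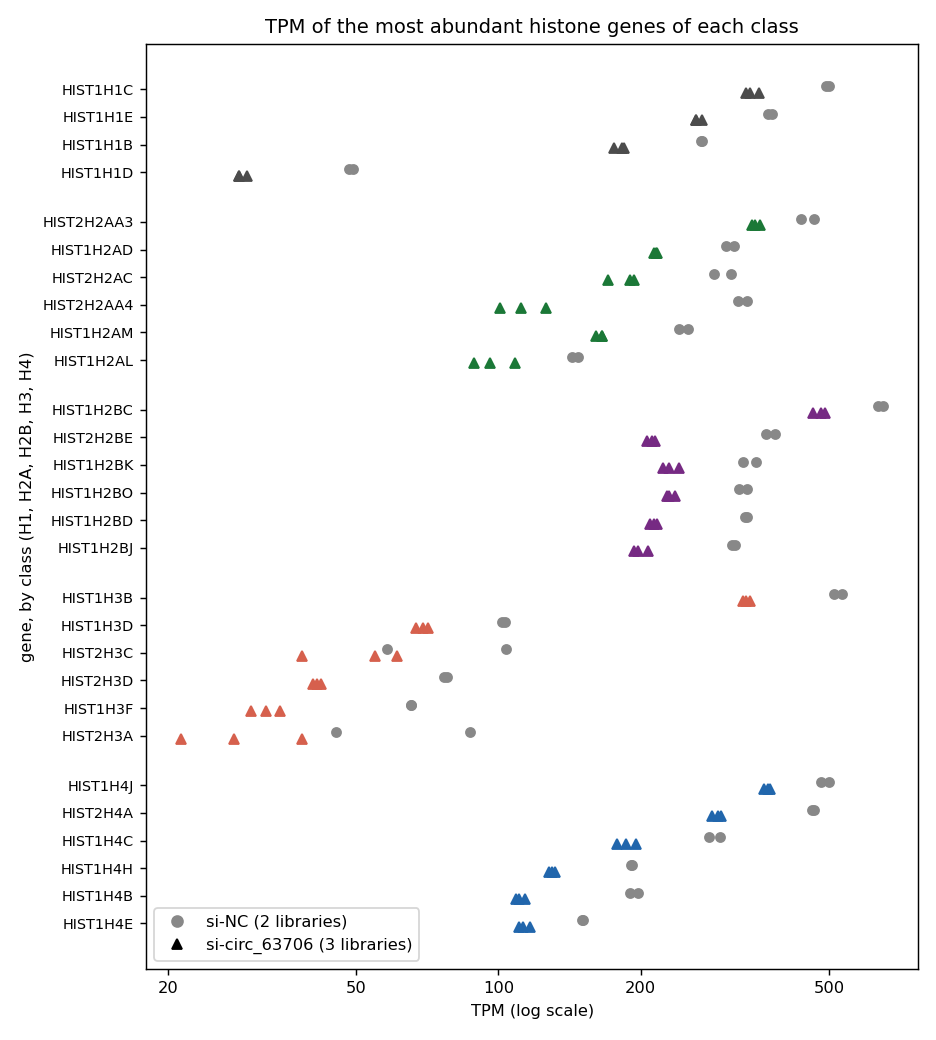
TPM (horizontal log axis) in every library for the 6 most abundant tested genes of each class (vertical axis; H1 has 4), with si-NC as grey circles and si-circ_63706 as coloured triangles. The groups are apart for all genes shown except HIST2H3C, and the near-identical copies HIST2H3C and HIST2H3A have the widest spread within si-NC.

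The balance between classes moved little compared with the total. H1 made up 12.7% and 13.0% of histone TPM in si-NC libraries and 13.3% to 13.5% in si-circ_63706 libraries. H2A made up 26.6% and 27.1% against 26.0% to 26.6%, and H2B 28.0% and 28.3% against 28.2% to 28.6%. H3, the class with the largest shift, made up 10.9% and 11.0% against 9.90% to 10.2%, and H4 made up 21.2% in both si-NC libraries against 21.5% to 22.2%. The ranges of the groups did not overlap for H1, H3 and H4, nearly met for H2A and overlapped for H2B.

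By cluster, the chromosome 6 genes (HIST1) held the most TPM and the chromosome 1 genes of HIST2 had the larger differences. The 42 tested HIST1 genes had a median log2 difference of -0.58 and a sum of 67.8% of si-NC, and the 12 tested HIST2 genes had a median of -0.70 and a sum of 59.2%. HIST2 made up 24.69% and 24.95% of histone TPM in si-NC libraries and 22.0% to 22.7% in si-circ_63706 libraries. This was not limited to the near-identical copies, since HIST2H2BE and HIST2H2AB, with 91.9% and 98.0% unique windows, had differences of -0.84 and -0.72. HIST2H2BF and HIST2H2AC, at -0.85 and -0.69, have 79.7% and 69.5% unique windows. HIST2H2AC shares 30.5% of its windows with HIST2H2AA4. The 2 tested HIST3 genes, also on chromosome 1, had a median of -0.64.

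The stretches of the chromosome 6 cluster had similar medians. Its genes fell into 3 stretches set apart by more than 500000 bases. The first, chr6:25726132-26285638, held 34 genes, and its 24 tested genes had a median of -0.57. The second, chr6:27125897-27147515, held 5 genes and had a median of -0.65 over 4, and the third, chr6:27807444-27893843, held 16 genes and had a median of -0.58 over 14. Single genes varied far more than stretches, and the third held both HIST1H3H, at -1.07, and HIST1H4L, at -0.23.

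**Figure D4:**
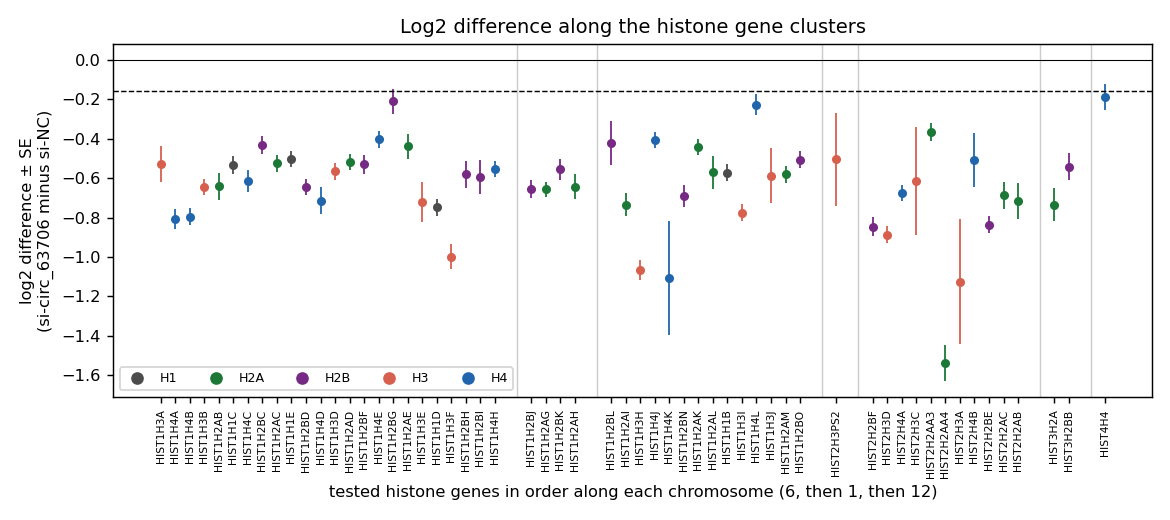
Log2 difference with its standard error (vertical axis) of the 57 tested histone genes in their order along chromosome 6, then 1, then 12 (horizontal axis), with grey lines between separate stretches and colours for the classes. Every gene is below 0 (solid line), and all but HIST4H4 and HIST1H2BG lie more than 1 standard error below the median of all tested genes (dashed), -0.16.

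Many H2A and H2B genes face away from each other and share the DNA between their starts. By their GENCODE gene starts there were 11 such pairs, 219 to 331 bases apart, and both partners were tested in 9. The partners' levels differed by 1.21-fold (HIST2H2BE and HIST2H2AC) to 8.60-fold (HIST1H2AD and HIST1H2BF). The annotated model of HIST1H2AD holds coding sequence alone, while that of HIST1H2BF runs 732 bases past the hairpin. How far annotated length enters such ratios was not tested. Their log2 differences were within 0.2 of each other in 7 of the 9 pairs. No background for unpaired genes was computed, and 44 of the 57 tested histone genes lay between -0.8 and -0.4. Nothing particular to pairs is therefore read from this. In HIST1H2BJ and HIST1H2AG both log2 differences were -0.66, and in HIST1H2BL and HIST1H2AI, the pair farthest apart, they were -0.42 and -0.74. Genes in the 11 pairs had a median of -0.55 and the other tested genes -0.61. HIST1H2AK and HIST1H2BN, whose GENCODE spans overlap, also face apart by their RefSeq starts but were not counted as a pair. Their log2 differences were -0.44 and -0.69.

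Sequence and annotation features that the choice of genes did not use separated the genes little. The 27 tested genes with the hairpin found in an annotated transcript had a median log2 difference of -0.58, and the other 30 had -0.60. Of those 30, 26 have coding-only models whose 3′ UTR could not be searched, so these medians do not compare genes with and without a hairpin. Genes whose annotation ran 100 or more bases past the hairpin had -0.58 (19 tested), and those that ended sooner had -0.54 (8 tested). Genes with TATAAA in the promoter had -0.64 (36 tested) against -0.56 without it (16 tested). For CCAAT the medians were -0.58 and -0.55, and for the octamer -0.58 and -0.61. All these medians lie well inside the range over single genes, and none of the contrasts was tested.

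Shared sequence limits what can be said of single copies. In 14 of the 71 genes, fewer than 50% of the 50-base windows are unique to the gene. The 39 tested genes in which at least 90% of windows are unique had a median log2 difference of -0.59, equal to that of all 57 genes. In addition, 16 histone genes overlap another annotated gene, and the library strand setting is not given in the sources used here, so reads of overlapping genes on opposite strands may not have been told apart.

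Other genes of histone biology were compared from lists of histone variants, histone mRNA factors, histone chaperones and S-phase genes, with limma and adjustment over all 12710 tested genes. Histone variants are made throughout the cell cycle or for special tasks, mostly from polyadenylated mRNA. Of 12 listed, 10 were tested, with a median log2 difference of -0.30. Of these, 7 were lower and 0 were higher, where 35.4% and 4.16% of all tested genes were, and 5 were lower with the libraries centred, where 13.7% were. H2AFX, the variant phosphorylated at DNA breaks, fell from 47.4 and 45.5 TPM to 23.9, 26.7 and 25.9 TPM (log2 difference -0.84, adjusted p = 7.71e-04). CENPA, the H3 variant of centromeres, fell from 19.3 and 19.4 TPM to 10.9, 11.4 and 12.6 TPM (-0.69, adjusted p = 0.00141). These changes were as large as those of many replication-dependent genes. Replication-independent H3.3 is encoded by H3F3A and H3F3B, which were singled out after their values were seen. H3F3B, the more abundant, fell from 386 and 382 TPM to 313, 333 and 348 TPM (-0.21, adjusted p = 0.0237), with no call once the libraries were centred (-0.06, adjusted p = 0.248). H3F3A had 79.0 and 80.6 TPM against 72.2, 74.8 and 72.5 TPM and did not pass (-0.12, adjusted p = 0.0551).

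Factors that make or process histone mRNA had a median log2 difference of -0.20, close to the -0.16 of all tested genes. Of 21 listed, 20 were tested, and 10 were lower and 0 higher, against 35.4% and 4.16% of all tested genes. With the libraries centred 2 were lower and 5 were higher, against 13.7% and 13.1%, so the lower ones were then near the background share. SLBP, which binds the hairpin, had 30.1 and 30.4 TPM against 30.4, 32.6 and 34.3 TPM, a log2 difference of 0.10 (adjusted p = 0.229), which became 0.26 with the libraries centred (adjusted p = 0.00698). SLBP TPM was thus not lower in any si-circ_63706 library, but TPM is a share of the library and SLBP protein was not measured. Any link to the histone levels was not tested. NPAT, which activates histone gene transcription, had 5.49 and 5.74 TPM against 4.55, 4.92 and 5.34 TPM (-0.16, adjusted p = 0.129).

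Of the U7 snRNP proteins, LSM10 fell from 8.82 and 8.71 TPM to 6.60, 5.80 and 5.95 TPM (log2 difference -0.46, adjusted p = 0.00375). LSM11 had 1.56 and 1.62 TPM against 1.78, 1.95 and 1.96 TPM (0.16, adjusted p = 0.135, and 0.32 at an adjusted p of 0.0204 with the libraries centred). RNU7-1, the U7 RNA itself, was listed at 0 in all 5 libraries. With read depth unknown, this does not show that U7 RNA was absent from the cells. ERI1, an exonuclease that trims and degrades histone mRNA, fell from 4.48 and 5.01 TPM to 3.01, 2.96 and 2.77 TPM (-0.55, adjusted p = 0.00274). ZNF473, a U7-associated zinc finger protein, fell (-0.34, adjusted p = 0.0127), with no call once either si-NC library was left out (adjusted p 0.0607 and 0.0819) or the libraries were centred (adjusted p = 0.0707). CASP8AP2, a partner of NPAT, was just past the threshold (-0.28, adjusted p = 0.0489), and centred it was -0.12 (adjusted p = 0.365). Its call was lost without si-NC replicate 2 (adjusted p = 0.261) and without any one si-circ_63706 library (adjusted p from 0.0850 to 0.113).

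Histone chaperones, which carry histones to and from DNA, had a median log2 difference of -0.19. All 16 were tested, and 9 were lower and 0 higher, against 35.4% and 4.16% of all tested genes. With the libraries centred 3 were lower and 1 was higher, against 13.7% and 13.1%, which for 16 genes is near the background. RBBP4, a subunit of the CAF-1 chaperone and of several chromatin complexes, fell from 59.1 and 66.1 TPM to 12.9, 11.1 and 11.8 TPM (-2.30, adjusted p = 4.69e-04). ASF1B, an H3-H4 chaperone of dividing cells, fell from 20.7 and 18.9 TPM to 14.9, 14.6 and 14.6 TPM (-0.40, adjusted p = 0.00330). Its relative ASF1A had 11.8 and 11.6 TPM against 10.9, 13.4 and 13.7 TPM (0.10, adjusted p = 0.439), with overlapping groups, and passed without si-circ_63706 replicate 1 (adjusted p = 0.0316). NAP1L1, a chaperone of H2A-H2B, had 166 and 175 TPM against 166, 168 and 178 TPM, did not pass (adjusted p = 1.000) and with the libraries centred was higher (0.16, adjusted p = 0.0176).

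S-phase genes, which act in DNA replication, lay between the histone genes and all tested genes, with a median log2 difference of -0.35. All 30 were tested, and 26 were lower and 1 higher, against 35.4% and 4.16% of all tested genes, the single higher gene being near that background. With the libraries centred 16 were lower and 1 higher, against 13.7% and 13.1%. MCM2, a subunit of the replicative helicase, fell from 50.9 and 52.1 TPM to 28.0, 30.3 and 29.5 TPM (-0.79, adjusted p = 6.00e-04). E2F1, a transcription factor for S-phase genes, fell from 6.80 and 6.21 TPM to 2.67, 2.40 and 2.46 TPM (-1.10, adjusted p = 6.33e-04). CDC25A, a phosphatase that activates CDK2, was the one higher gene, with 6.75 and 6.89 TPM against 7.78, 9.13 and 8.56 TPM (0.28, adjusted p = 0.0248), and its call was lost without any one of the libraries except si-circ_63706 replicate 1 (adjusted p from 0.0579 to 0.121). The counts of lower genes leaned on the si-NC libraries. With either left out, fewer S-phase genes, mRNA factors and chaperones were lower. Fewer of all tested genes were lower too, so the fall was not particular to these lists. Cells in S phase were not counted, and in bulk RNA fewer cells of a phase and less RNA per cell cannot be told apart.

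**Figure D5:**
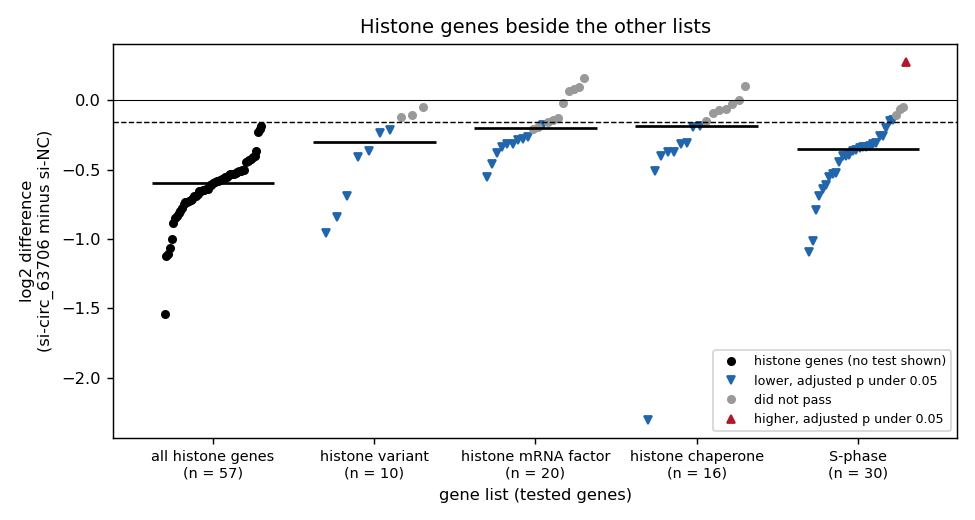
Log2 difference (vertical axis, si-circ_63706 minus si-NC) of the tested histone genes (black, no test shown) and of the tested genes of the other lists (horizontal axis), with blue triangles for lower, red for higher and grey circles for genes that did not pass, and a line at each median. The histone median is -0.59, against -0.30, -0.20, -0.19 and -0.35 for the other lists and -0.16 for all tested genes (dashed).

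Several features of the libraries moved with the groups, and their part in the histone levels was not tested. Protein-coding genes held 29.02% of TPM in both si-NC libraries and 25.2% to 26.9% in si-circ_63706 libraries. The abundant RN7SL1 RNA alone held 256019 and 253664 TPM against 281108, 292230 and 291309 TPM, and 29748 and 29253 genes were above 0 against 33905 to 34347. PCNT, the host gene of circ_63706, had 9.96 and 10.4 TPM against 8.80, 7.99 and 7.54 TPM. In limma it was lower (log2 difference -0.30, adjusted p = 0.0190), with no call once the libraries were centred (-0.14, adjusted p = 0.279). The PCNT level is one value for the gene and does not measure the circle, so it does not check the labels. Of the markers of medulloblastoma and neural progenitors, VIM was high but fell from 1075 and 996 TPM to 751, 806 and 829 TPM (adjusted p = 0.00530), SFRP1, PTCH1, SYP and GLI2 were between 0.92 and 9.46 TPM, and NES, ATOH1, GLI1, MAP2 and GFAP were under 1 TPM in every library. PTPRC, PECAM1, EPCAM and ALB, markers of other cell types, were at 0.35 TPM or less, whereas the fibroblast marker COL1A1 rose from 83.1 and 79.4 TPM to 104, 91.7 and 91.0 TPM (adjusted p = 0.0386). SFRP1 also fell, from 9.35 and 9.46 TPM to 6.81, 7.26 and 7.12 TPM (adjusted p = 0.00377). VIM, COL1A1 and SFRP1 also passed with the libraries centred (adjusted p = 0.0170, 0.0215 and 0.0210).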

How the data were processed

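RNA of 5 DAOY libraries (2 si-NC, 3 si-circ_63706, grouped by their labels) was analysed from the TPM table that the authors deposited. The submitters' processing notes name cutadapt 2.3, STAR 2.7.0d, RSEM 1.3.1 and hg38. The annotation release is not given in the sources used here. TPM is rounded to 2 decimals and keeps no read depth, so no counting intervals were computed. Genes with a mean of at least 1 TPM were fitted with limma 3.58.1 (R 4.3.3) on log2(TPM + 1), si-circ_63706 against si-NC, with empirical Bayes and a trend of variance on level, and p values were adjusted by Benjamini-Hochberg over all tested genes (two-sided, threshold 0.05). A fold change on this scale understates that of low genes. The procedure was tested on simulated data.

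The genes and lists were chosen with earlier results of these data known. Named genes were, per class, the 3 with the highest mean TPM and the lowest and highest log2 difference, a fixed set of 7 mRNA factors, and per list the 2 with the lowest adjusted p in each direction. H3F3A, H3F3B and other genes named as examples were added after their values were seen. Positions, hairpins and shared 50-base windows came from GENCODE 29, and promoters from RefSeq (GRCh38.p14). Alternatives were a pseudocount of 0.1, no minimum or one of 5 TPM, centring, quantile normalization, protein-coding genes alone, no trend, a replicate block and leaving out each library.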

Additional observations from a re-analysis of the deposited data

How the results depend on the processing

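The count of lower histone genes stayed between 47 and 54 and that of higher ones at 0 under every alternative, and no called result changed direction. Of genes that did not pass, NPAT (-0.16) was at 0.00 centred and 0.02 after quantile normalization, and NAP1L1 (0.00) was at -0.03 with a replicate block or without si-circ_63706 replicate 3 and at -0.04 without si-NC replicate 1. The median histone log2 difference was -0.65 with a pseudocount of 0.1, -0.43 centred, -0.50 after quantile normalization and -0.49 within protein-coding genes, and from -0.65 to -0.58 leaving out 1 library. The summed histone TPM was 73.3% of si-NC centred, 73.0% within protein-coding genes, and 65.0% to 66.3% leaving out 1 library. Scaling moved the median of all genes by 0.16 and with it the balance of calls. Against 4504 lower and 529 higher genes, there were 1737 and 1671 centred, 1682 and 1584 after quantile normalization, 2419 and 1591 within protein-coding genes, and 2597 and 292 with no minimum TPM. Leaving out 1 library gave 1960 to 4289 lower and 208 to 578 higher genes. The lowest counts came without a si-NC library, where the lone one is assumed to vary like the rest, and without si-circ_63706 replicate 2 there were 350 higher genes.

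Lower mRNA factors numbered 5 with no minimum, 2 centred, 3 after quantile normalization, 6 within protein-coding genes and 4 to 10 leaving out 1 library. Higher ones numbered 5, 5 and 4 when centred, quantile normalized or within protein-coding genes. Lower chaperones numbered 3 centred, 3 after quantile normalization and 5 to 8 leaving out 1 library, and higher ones 1 centred, 2 within protein-coding genes and 0 to 1 leaving out 1 library. Lower S-phase genes numbered 16 centred, 16 after quantile normalization and 17 to 25 leaving out 1 library, and higher ones 0 with no minimum and 0 to 1 leaving out 1 library.

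Replicate numbers 1 and 2 occur in both groups, but nothing in the labels says that a number marks a shared culture or day, and deviations of same-numbered libraries correlated at 0.014 and 0.026 over tested genes. With the replicate number as a block, in which si-circ_63706 replicate 3 adds nothing to the difference, 3560 genes were lower and 325 higher, the median histone log2 difference was -0.64, 51 histone genes were lower, and 0 S-phase genes were higher.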

Other observations

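Annotated histone pseudogenes of the same symbol families were mostly silent. Of 18 listed, 8 were at 0 in every library and 5 had a mean of at least 1 TPM. Among those 5, all in the HIST2 and HIST3 families, 4 were lower at an adjusted p under 0.05 in limma, where 35.4% of all tested genes were, and 2 with the libraries centred, where 13.7% were. Their median log2 difference was -0.36, and 5 genes are too few to read these shares closely. HIST2H2BA had 7.35 and 8.09 TPM in si-NC and 4.74, 5.01 and 5.31 TPM in si-circ_63706. HIST2H2BB had 7.29 and 6.51 TPM against 3.88, 3.03 and 3.46 TPM. Some of their sequence is shared with H2B genes, and how reads were divided between them is uncertain.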
